A study of Mus musculus with 35 samples.

Results

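The regions described here are the stretches of accessible DNA that separate haematopoietic stem cells (HSCs) of 14-day-old mice (P14) from HSCs of adult mice. They were taken from 1 deposited peak list per age: touching or overlapping peaks on chromosomes 1 to 19 and X were merged, and a region was P14-only or adult-only when it shared not even 1 bp with a region of the other list. Of 73287 P14 regions and 89431 adult regions, 11346 were P14-only and 27249 were adult-only. Because the adult list is longer, the comparison was repeated with the adult list cut to its 73287 regions of highest -log10 p, which gave 16081 P14-only and 16183 adult-only regions.

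The study mapped open chromatin by ATAC-seq (a transposase cuts DNA that nucleosomes leave exposed and tags it for sequencing) in HSCs and haematopoietic progenitor cells (HPCs) before and after birth. It comprises 35 libraries and 12 peak lists. The P14 HSC group holds 3 libraries with no genotype label, and the adult HSC group holds 5 libraries from mice 8 weeks old, labelled WT in their titles. The strain of all groups is B6 per the series description, and the sources used here give no sex, pooling of animals or sorting markers. Of the other lists, 6 carry names of the same form as these (fetal HSCs at E16.5, and HPCs of the fetus, P7, P14, P21 and 8 weeks). Together with the HSC lists compared here, these are called set 1. That they were made in the same way is taken from the names alone. The remaining 4 are P7 lists of wild-type mice and of mice labelled as knockouts of the type I interferon receptor (set 2).

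HSCs maintain all blood lineages for life. In the mouse they expand in the fetal liver, settle in the bone marrow around birth, divide often in the newborn, and become largely quiescent within the first weeks of life. Open chromatin marks promoters and more distant elements where transcription factors can bind, and many elements far from promoters are open in 1 cell type or stage and closed in another.

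Before the values, a few promoters show the kind of sequence on either side. They are promoters overlapped by a P14-only or an adult-only region and by no shared region of either list, chosen after their values were seen from the 25 of highest -log10 p in each direction. Each line gives the 250 bases before a RefSeq transcription start (GRCm38.p6), read along the strand of the gene. Capitals mark AP-1 (TGANTCA), RUNX (TGTGGT), CEBP (TTGCNNAA) and E-box (CAGCTG) letters on either strand. The letters AGATAA for GATA factors, CCGGAAGT for ETS factors and CCACNAGG for CTCF, and the IRF motif, were searched as well, and none lies in these 6 stretches.
Gigyf1 promoter, P14-only, chr5:137518630-137518879, plus strand: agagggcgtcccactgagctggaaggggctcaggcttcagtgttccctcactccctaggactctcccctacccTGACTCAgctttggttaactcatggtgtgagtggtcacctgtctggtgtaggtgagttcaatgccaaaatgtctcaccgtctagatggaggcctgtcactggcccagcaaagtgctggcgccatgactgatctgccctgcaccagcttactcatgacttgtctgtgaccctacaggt
Lamb2 promoter, P14-only, chr9:108479612-108479861, plus strand: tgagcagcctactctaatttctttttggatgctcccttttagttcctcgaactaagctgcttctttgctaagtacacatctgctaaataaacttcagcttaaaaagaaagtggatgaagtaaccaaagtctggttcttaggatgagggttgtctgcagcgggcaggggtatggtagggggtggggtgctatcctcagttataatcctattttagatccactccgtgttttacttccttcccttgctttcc
Gimap7 promoter, P14-only, chr6:48718371-48718620, plus strand: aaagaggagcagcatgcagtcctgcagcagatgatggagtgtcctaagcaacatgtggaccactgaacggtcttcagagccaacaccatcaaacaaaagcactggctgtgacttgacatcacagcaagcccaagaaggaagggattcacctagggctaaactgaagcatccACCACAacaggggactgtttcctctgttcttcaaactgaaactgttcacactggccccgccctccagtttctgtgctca
Wnt2 promoter, adult-only, chr6:18030446-18030695, minus strand: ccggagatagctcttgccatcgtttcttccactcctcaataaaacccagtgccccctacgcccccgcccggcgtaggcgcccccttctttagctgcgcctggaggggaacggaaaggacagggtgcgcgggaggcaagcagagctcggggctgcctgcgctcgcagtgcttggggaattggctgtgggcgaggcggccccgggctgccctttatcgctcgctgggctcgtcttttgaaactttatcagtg
Fam180a promoter, adult-only, chr6:35326142-35326391, minus strand: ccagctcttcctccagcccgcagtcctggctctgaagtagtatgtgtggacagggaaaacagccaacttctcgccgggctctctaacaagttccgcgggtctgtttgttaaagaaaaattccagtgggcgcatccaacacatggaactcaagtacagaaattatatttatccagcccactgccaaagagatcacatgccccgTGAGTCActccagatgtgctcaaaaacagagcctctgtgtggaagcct
Orm3 promoter, adult-only, chr4:63355908-63356157, plus strand: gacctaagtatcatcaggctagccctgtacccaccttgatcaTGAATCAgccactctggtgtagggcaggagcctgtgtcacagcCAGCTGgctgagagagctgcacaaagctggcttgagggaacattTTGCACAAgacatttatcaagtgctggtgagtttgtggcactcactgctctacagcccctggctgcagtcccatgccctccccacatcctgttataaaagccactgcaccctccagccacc

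Gigyf1, which encodes an adaptor protein of growth factor receptor signalling and translational repression, led the P14-only promoters with a -log10 p of 150. Lamb2, a laminin chain gene, reached 133, and Gimap7, a GTPase gene of the lymphocyte GIMAP cluster, reached 111. All of these promoters were also called in fetal HSCs and P14 HPCs, and that of Gimap7 in adult HPCs as well. Adult-only regions at promoters reached higher values: 557 at Fam180a and 285 at Wnt2, the gene of a Wnt ligand, whose promoter was also called in fetal HSCs (64.9) and P14 HPCs (136). The promoters of Fam180a (557) and Orm3, an acute phase protein gene (216), were missing from fetal HSCs and present in adult HPCs.

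Of 21045 RefSeq promoters of protein-coding genes, counted over 250 bases before to 50 after the start, 12394 (58.9%) were overlapped in both HSC lists, 294 (1.40%) in the P14 list alone and 667 (3.17%) in the adult list alone. The region itself was P14-only for 239 and adult-only for 535 of these. In the others a region present at both ages reached into the promoter at 1 age alone. Promoters open at both ages were richer in G and C (median 61.2%) than those of P14 alone (56.4%) or the adult alone (55.6%), and promoters in neither list had 46.8%. CEBP letters lay in 4.08% (2.13 to 7.02) of P14-only and 10.8% (8.54 to 13.4) of adult-only promoters, against 9.18% of all promoters. IRF letters lay in 2.38% (0.963 to 4.84) and 4.80% (3.30 to 6.71), against 2.98% of all. ETS letters lay in 5.98% of promoters open at both ages, 1.36% of P14-only and 0.900% of adult-only promoters, against 3.83% of all. RUNX letters lay in 13.9% of P14-only, 11.7% of adult-only and 12.2% of all promoters. Such matches describe letters in a window and were not compared with binding. Intervals here and below are exact 95% Clopper-Pearson intervals. They cover counting error only, not the spread between animals, and every value rests on n = 1 pooled list per age.

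The P14 list covered 47.2 Mb with a median -log10 p of 79.6 per region, and the adult list 56.3 Mb with a median of 82.99. The sources used here give no read depth. The descriptions of all 3 P14 HSC libraries name the adult HSC list, and those of 3 of the 5 adult libraries name HPC lists of P14 or P21. The 3 descriptions that name the P14 HSC list belong to HPC libraries of P14 and P21. The assignment therefore rests on the name each list carries. A check by cell type used strong fetal regions, those in the upper 50% of a fetal list by -log10 p, that the other fetal list lacks. The list named P14 HSC called 69.2% of 1485 fetal HSC-specific regions and 27.2% of 2135 fetal HPC-specific regions. The adult HSC list called 82.9% and 51.1%, whereas the P14 HPC list called 62.7% and 73.3%. Both HSC lists thus held a larger share of the stem cell regions than of the progenitor regions, and the adult HSC list held more of both than the P14 list. This check compares cell types and cannot tell a P14 list from an adult list.

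The question of the comparison is which regulatory DNA of stem cells differs between the juvenile and the adult animal. P14-only regions were 15.5% (15.2 to 15.7) of the P14 list and adult-only regions 30.5% (30.2 to 30.8) of the adult list. At equal length the shares were 21.9% and 22.1%, while among strong regions of equal-length lists the adult kept the larger count, 2671 against 1299. List-specific regions were weak: their median -log10 p was 28.5 at P14, against 100.5 for shared regions, and 34.8 in the adult, against 130.4. They were also narrower, with median widths of 409 bp against 629 bp at P14 and 430 bp against 627 bp in the adult. In the weakest 10% of the P14 list 50.2% of regions were P14-only, and in the strongest 10% 1 of 7329 was. In the adult list the share fell from 74.5% to 0.503% (45 of 8943), so nearly every one of the strongest adult sites was also called at P14. Among strong regions (upper 50% of their list by -log10 p) 2.27% of P14 and 10.1% of adult regions were list-specific, and with strong regions of equal-length lists 3.54% and 7.29%. Leaving out a few of the weakest calls moved the shares little: with a -log10 q of at least 5 the shares were 15.3% and 30.4%, and without regions of -log10 p below 10 they were 15.3% and 30.3%. Few calls were marginal in position: 34 P14-only and 59 adult-only regions lay within 50 bp of a region of the other list, and 9 P14 and 11 adult regions were shared through an overlap under 50 bp.

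**Figure D1:**
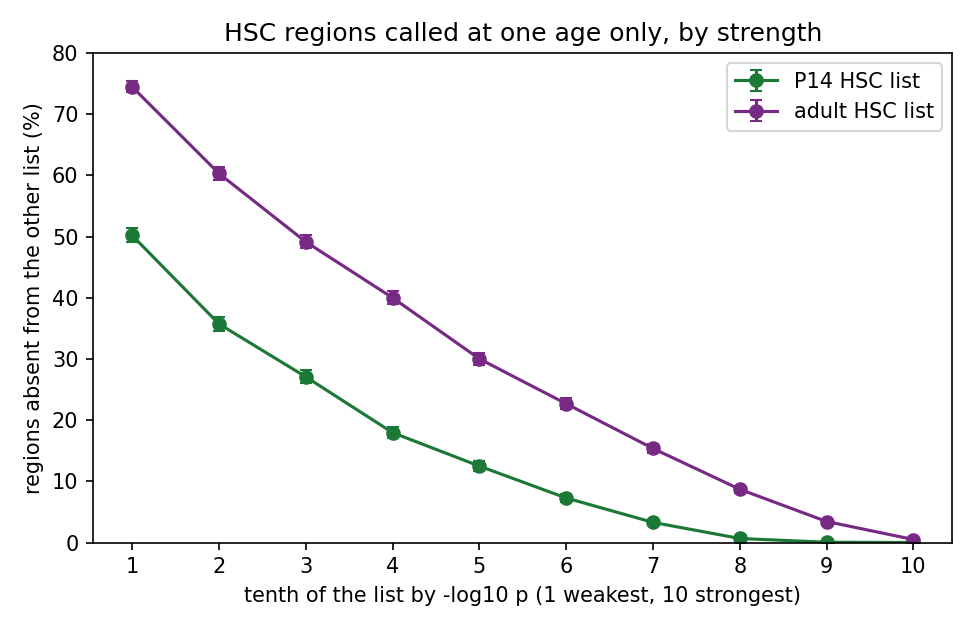
Percentage of regions absent from the other HSC list (y axis) in each of 10 equal parts of the P14 list (green) and the adult list (purple), ordered by the authors' -log10 p from weakest to strongest (x axis); bars are exact 95% intervals. The share falls from 50.2% to 0.0136% at P14 and from 74.5% to 0.503% in the adult.

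Most strong regions of 1 age were called in other cells of the series. P14-only regions were called in fetal HSCs in 45.7% of cases and in P14 HPCs in 47.6%. Adult-only regions were called in fetal HSCs in 51.8% and in adult HPCs in 52.9%. Shared regions were called in fetal HSCs in 91.0% of P14 and 90.9% of adult cases, so regions of 1 age were missing elsewhere more often, and they were also weaker. In the class of -log10 p from 100 to 200, 84.8% (80.8 to 88.2) of 387 P14-only regions and 78.8% (77.1 to 80.3) of 2573 adult-only regions were in fetal HSCs. At 200 and over, all 16 P14-only regions and 80.1% of 768 adult-only regions were. Of the strong regions (upper 50% of their list), 74.8% of 830 P14-only and 73.6% of 4536 adult-only regions were called both in fetal HSCs and in at least 1 HPC list. Regions of 1 age that no other list of set 1 held were 24.5% of all P14-only and 20.3% of all adult-only regions, but 3.25% and 5.67% of the strong ones.

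The P7 lists of set 2 separated the directions, but the P7 HPC list outside set 2 did not show this contrast. Wild-type P7 HSCs held 20.7% (19.9 to 21.4) of P14-only regions and 2.61% (2.43 to 2.81) of adult-only regions, although they held 67.2% of shared regions from either side. Wild-type P7 HPCs held 44.8% and 15.3%. The P7 HPC list outside set 2 went the other way, with 31.4% of P14-only and 39.0% of adult-only regions. In the class of -log10 p from 100 to 200, wild-type P7 HSCs held 88.1% (84.5 to 91.2) of P14-only regions and 5.36% (4.52 to 6.31) of adult-only regions. Wild-type P7 HPCs of set 2 held 93.0% and 19.1% in this class, and the P7 HPC list outside set 2 held 53.0% and 65.5%. The adult-only regions, which P14 HSCs lack by definition, were thus largely absent from neonatal HSCs of set 2. Of those in the same class, 78.8% were present in fetal HSCs. Set 2 was called with a higher lowest -log10 p, and the wild-type P7 HSC list is short (45615 regions). The part of list length and calling in these shares was not tested. For HPCs of the same age the contrast thus differed between sets. No P7 HSC list lies outside set 2, so for P7 HSCs age and set cannot be told apart.

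**Figure D2:**
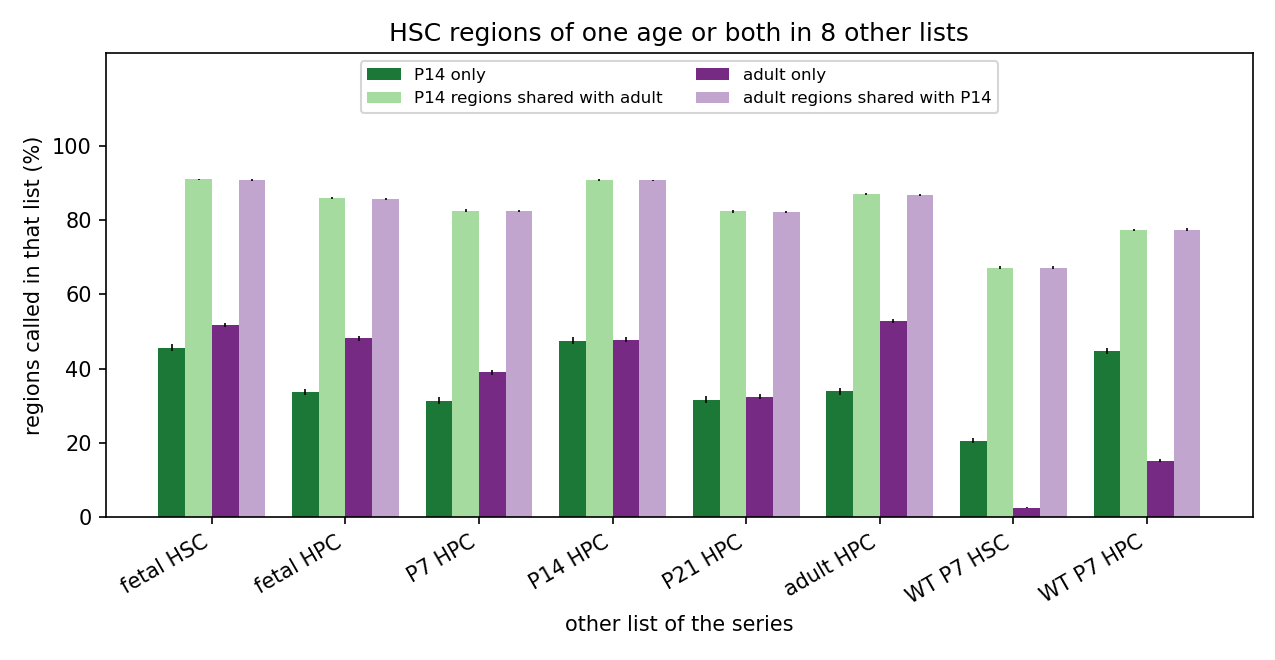
Percentage of P14-only, adult-only and shared HSC regions (y axis) called in each of 8 other lists of the series (x axis); bars are exact 95% intervals. Adult-only regions reach 51.8% in fetal HSCs and 2.61% in wild-type P7 HSCs, and P14-only regions 45.7% and 20.7%.

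The strongest P14-only regions lay mostly inside genes. The first was in Arhgap39, a GTPase-activating protein gene (mm10 chr15:76765748-76766170, -log10 p 497). It was called in 11 of the 12 lists and missing from adult HSCs alone, with 115 in fetal HSCs, 174 in P14 HPCs and 116 in adult HPCs. Regions in Kyat1, an aminotransferase gene (chr2:30186677-30187313, 263), Snx10, an endosomal sorting gene (chr6:51580143-51580681, 250), and Cercam (chr2:29858961-29859585, 243) were likewise missing from adult HSCs alone. The second strongest, in Tekt4, a gene of cilia and flagella (chr17:25462374-25463034, 295), was held by fetal HSCs and by no HPC list of set 1. Phf21a, a gene of a histone demethylase complex, carried a 302 bp region (chr2:92191874-92192175, 250) that covers the microRNA gene Mir1955. Others near the top lay in or near Tnpo3 (234), Mapk13, a p38 kinase gene (228), Arfgef2 (224), Rnf213 (220), Slc7a6 (218), Golga2 (214), Tmem204 (214), Scn10a (206) and Zfyve28 (197). Of the 20 strongest P14-only regions 19 were in fetal HSCs and none lay within 1 kb of a RefSeq start.

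The adult-only region of highest -log10 p was a 236 bp stretch nearest Col19a1 (chr1:24612999-24613234) with a -log10 p of 4803. It was called in 7 lists, with 3906 in fetal HPCs, 2648 in P14 HPCs, 4195 in adult HPCs and 2492 in wild-type P7 HSCs, and it was missing from fetal and P14 HSCs. The next highest adult-only value was 1005, and whether the reads of the Col19a1 stretch map to it alone, or also to another copy of its sequence such as mitochondrial DNA, was not tested. Of regions within 50 kb of a gene end, the limit used to name them, the next lay 3.28 kb from Pgr, the progesterone receptor gene (chr9:8895081-8895621, 834). It was weak in fetal, P14 and P21 HPCs (15.9, 21.7 and 23.2), reached 676 in adult HPCs and was missing from both younger HSC lists of set 1. A region in Lmo3, a LIM domain gene (chr6:138383049-138383762, 771), was held by every list of set 1 except P14 HSCs, with 40.0 in fetal HSCs and 638 in adult HPCs. Regions in Zscan25 (chr5:145288172-145288883, 657) and near Sult1d1, a sulfotransferase gene (chr5:87547266-87547817, 654), were weaker in fetal HSCs (15.1 and 215) and missing from all 4 lists of set 2. Other named regions lay in or near Gnai1, a G protein subunit gene (567), A26c3 (555), Tmem196 (537), Lrrn3 (535), Dcx (489), Fam171a1 (473), Nek10 (469), Thnsl1 (462) and Plppr1 (437). They ranked from 23 to 66 among all adult-only regions. Those of Fam171a1, Thnsl1 and Plppr1 lay 44.6, 41.6 and 17.2 kb from the gene. Of the 20 strongest adult-only regions 15 had no end of a protein-coding gene within 50 kb, against 2 of the 20 strongest P14-only regions. The -log10 p values of different lists depend on their depth and are given for description.

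Regions missing from a single HSC list and held by the other 7 lists of set 1 numbered 840 for the adult list and 3747 for the P14 list. They were 7.40% of P14-only and 13.8% of adult-only regions, and at equal length 8.79% and 20.8%. The reverse class, regions of 1 HSC list that no other list of set 1 held, was led at P14 by Trpc4ap (155), Rpa2, a replication protein gene (118), Pithd1 (105), Map2k5, a MAP kinase kinase gene (103), and Ahi1 (102). Each of these was called in at least 1 of the P7 lists of set 2. In the adult it was led by Fsip1 (chr2:118167621-118168219, 331), C2cd2 (255), Gem, a small GTPase gene (249), Dsc3, a desmosomal cadherin gene (228), and Cops8, a signalosome subunit gene (225). These adult regions, of which those of Dsc3 and Cops8 lay 48.9 kb and 20.1 kb from the gene, were called in no other of the 12 lists.

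The sides also differed in where they lay. At equal length an adult-only region had a median of 5 protein-coding genes within 1 Mb (500 kb on either side), a P14-only region 14 and a shared region 10. Adult-only regions were over 100 kb from any RefSeq start in 46.3% (45.5 to 47.1) of cases, P14-only regions in 18.5% (17.9 to 19.1) and shared P14 regions in 23.8%. Few of either kind were at promoters: 3.75% of adult-only and 5.14% of P14-only regions lay within 1 kb of a start, against 20.2% of shared regions. Among the strong regions the medians were 4 genes for adult-only and 18 for P14-only regions.

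The share of list-specific regions changed steadily with gene density. Where 0 to 2 genes lay within 1 Mb, 47.3% (46.2 to 48.3) of adult regions were adult-only and 11.0% (10.2 to 11.8) of P14 regions were P14-only, at equal length. Where 21 or more genes lay within 1 Mb, the shares were 7.61% (7.16 to 8.08) and 27.9% (27.2 to 28.6). Between these, the classes of 3 to 5 and 11 to 20 genes gave 31.8% and 12.7% adult-only and 14.9% and 26.3% P14-only, with the class of 6 to 10 genes between them on both sides. The pattern held among regions of like strength. Of adult regions with -log10 p from 100 to 200, 42.9% were adult-only in the most gene-poor class and 3.44% in the most gene-dense class. Of P14 regions in the same range, 0.762% and 7.97% were P14-only.

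The same direction was seen, with a smaller range, between HPCs of P14 and of the adult. By the names of the lists these share no library with the HSC lists, although some library descriptions name lists across the 2 cell types. In equal-length HPC lists adult-only regions fell from 26.5% in the most gene-poor class to 10.1% in the most gene-dense class, and P14-only regions went from 16.2% to 20.5%. Median gene counts were 6 for adult-only and 10 for P14-only HPC regions. Fetal HSCs against P14 HSCs, which share the P14 list with the comparison described here, gave medians of 4 genes for fetal-only and 13 for P14-only regions. Fetal against adult HSCs gave 7 genes on either side. Of the 73287 strongest regions of each list of set 1, the most gene-poor class held 7.67% at P14 in HSCs, 12.9% in adult HSCs, 14.2% in fetal HSCs and between 9.47% and 13.6% in the HPC lists. The P14 HSC list was therefore the lowest of the 8 in this class, and also the highest in median fold over background of the 8 (13.0, against 8.10 to 10.2 in the others). The lists of set 2, which are shorter, had a median fold of 12.1 to 13.4. Their regions had a median of 11 or 12 genes within 1 Mb, against 11 in P14 HSCs and 8 or 9 in the other lists of set 1. The part of library quality or depth in the pattern by gene density was not tested, and with 1 pooled list per age it cannot be told apart from age.

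**Figure D3:**
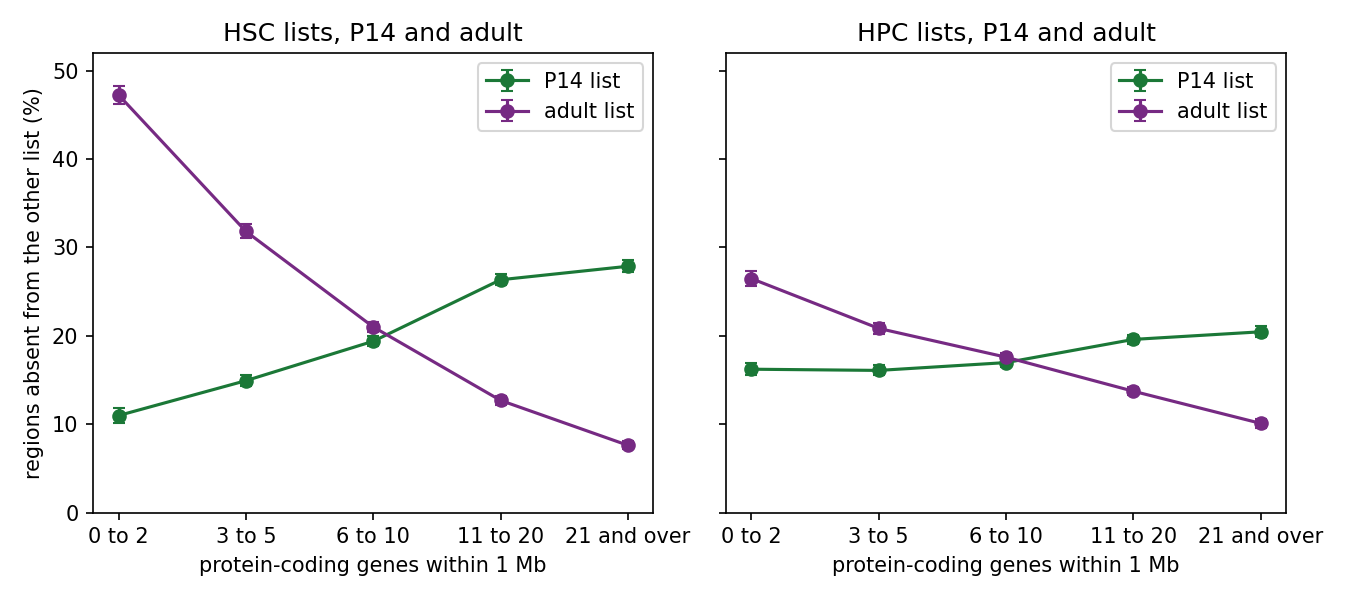
Percentage of regions absent from the other age (y axis) by the number of protein-coding genes within 1 Mb (x axis), for equal-length P14 (green) and adult (purple) lists of HSCs (left) and HPCs (right); bars are exact 95% intervals. In HSCs adult-only regions fall from 47.3% to 7.61% and P14-only regions rise from 11.0% to 27.9%; in HPCs the ranges are 26.5% to 10.1% and 16.2% to 20.5%.

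By chromosome, at equal length, P14-only shares ran from 12.3% on X to 32.8% on chromosome 11, and adult-only shares from 12.7% on chromosome 11 to 32.7% on X. Within the class of 6 to 10 genes per Mb, 30.5% (26.8 to 34.3) of adult regions on X were adult-only, against 20.7% (20.1 to 21.3) on autosomes, and 9.96% (7.41 to 13.0) of P14 regions on X were P14-only, against 19.6% (19.1 to 20.2). On X the adult-only share was the higher one, beyond counting error, in every class but that of 21 genes and over, where the intervals overlapped. The part of the animals' sex, which no label gives, was not tested. Of 2473 windows of 1 Mb with a list-specific region, the adult had more in 1577 (median 4 genes) and P14 in 782 (median 12 genes).

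The 1 Mb window with the largest adult excess held immunoglobulin heavy chain variable segments (chromosome 12, 115 to 116 Mb). The whole heavy chain locus (chr12:113256204-116009954), whose segments are rearranged when B cells form, held 12 regions in P14 HSCs and 105 in adult HSCs, of which 93 were adult-only, with a median -log10 p of 55.2. At equal length 75 of 87 adult regions there were adult-only and none of the 12 P14 regions was P14-only. Fetal HSCs held 54 regions and the 5 HPC lists of set 1 between 93 and 121, so adult HSCs lay within the HPC range at this locus. P7 HSCs of set 2 were low like P14 HSCs, with 7 in the wild type and 9 in the knockout, while P7 HPCs of set 2 held 91 and 69. Of the 93 adult-only regions, 67 were called in P14 HPCs, 55 in adult HPCs, 31 in fetal HSCs and none in wild-type P7 HSCs.

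The kappa light chain locus (chr6:67555636-70726754) held 6 regions at P14 and 32 in the adult, 26 of them adult-only, with 53 in fetal HSCs and 13 to 57 in HPCs. The T cell receptor beta locus held 23 and 42, with 20 adult-only and 2 P14-only regions. The T cell receptor alpha and delta locus went the other way, with 46 at P14 and 37 in the adult, 17 P14-only and 8 adult-only. These loci were chosen after the window counts were seen. B cell marker genes did not follow the heavy chain locus: at equal length Cd79b held 4 P14-only regions and no adult-only region, Ms4a1 none and 1, and Cd22 and Blk none on either side. The T cell markers held 4 P14-only and no adult-only regions, where regions of like strength and gene density would give 2.90 and 0.380. Of the 4, 2 lay at Cd3e. The part of lymphoid cells in either pool was not tested.

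**Figure D4:**
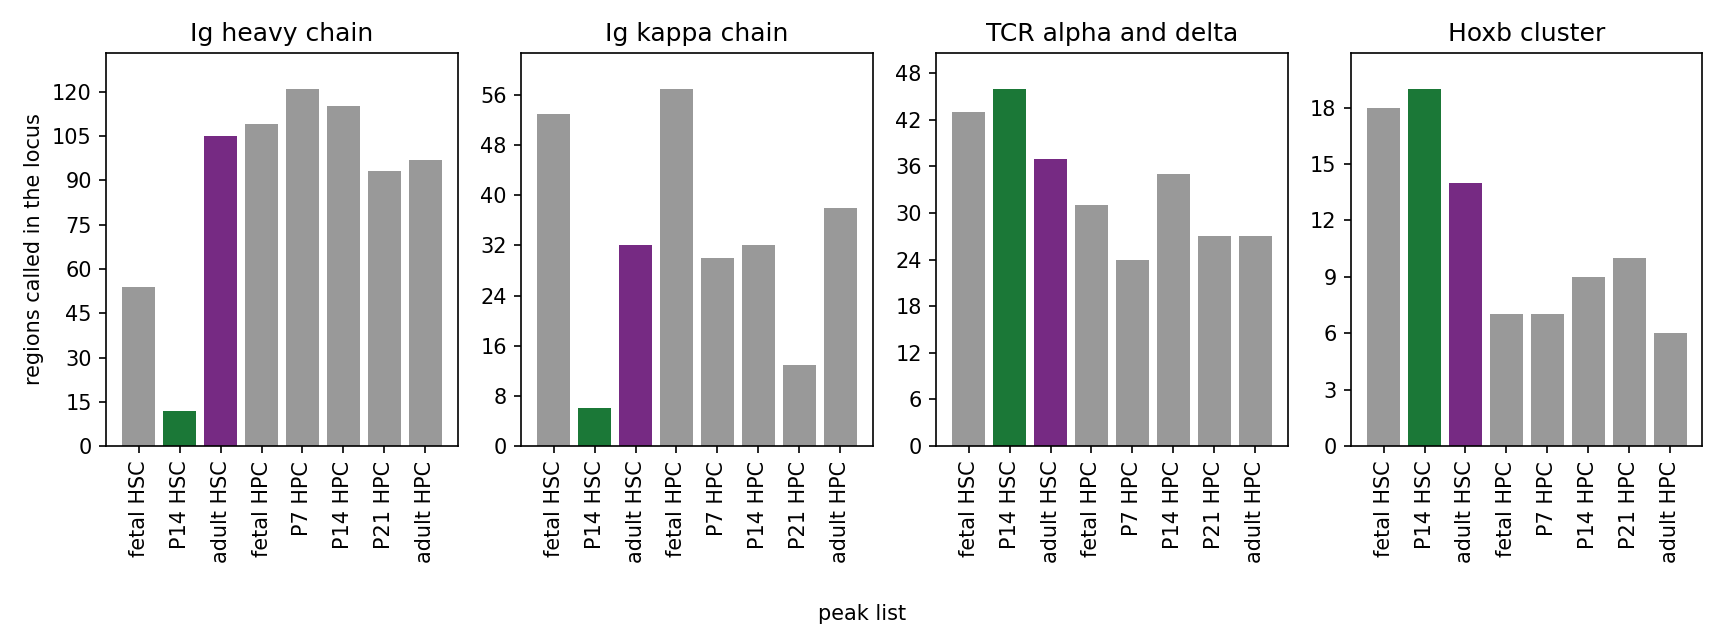
Regions called (y axis) in the immunoglobulin heavy and kappa chain loci, the T cell receptor alpha and delta locus and the Hoxb cluster, in the 8 lists of set 1 (x axis), P14 HSCs in green and adult HSCs in purple. P14 HSCs hold 12 heavy chain regions and adult HSCs 105; at Hoxb the values are 19 and 14, against 6 to 10 in HPCs.

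The homeobox clusters, whose genes pattern the embryo and mark primitive blood cells, held more P14 regions. Hoxb (chr11:96194316-96368254) held 19 regions at P14 and 14 in the adult, 7 of them P14-only and 2 adult-only. Fetal HSCs held 18 and the HPC lists of set 1 6 to 10, so within set 1 the HSC lists held more; in set 2 the P7 HPC lists held 12 and 14 and the P7 HSC lists 10 and 9. Hoxa (chr6:52155367-52260880) held 19 and 16, with 5 P14-only regions and no adult-only region, and 12 to 17 in HPCs.

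Counted around genes (the gene body and 10 kb on each side), 3872 of 21631 protein-coding genes had more adult-only regions at equal length, 6751 had more P14-only regions and 11008 had as many of each. Over all gene windows 22.0% of P14 regions were P14-only and 17.6% of adult regions adult-only; with the whole lists the shares were 15.5% and 25.6%. Direction followed gene density here too: among genes with 0 to 2 genes per Mb 59.8% had more adult-only and 7.89% more P14-only regions, and among those with 21 or more 7.86% and 37.4%. The 16 functional lists and 7 marker lists below are read against these shares, and no list was tested.

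Regulators of HSCs stood close to all genes at equal length, with 51 of 244 P14 regions P14-only (20.9%) and 45 of 241 adult regions adult-only (18.7%), and with the whole lists 34 and 95. Members went opposite ways. Fli1, an ETS factor gene of stem cells and megakaryocytes, had no P14-only and 7 adult-only regions among 14 and 22. Etv6, an ETS repressor gene needed for HSCs in adult marrow, had 1 and 9 among 19 and 27. The strongest adult-only region of Etv6 (chr6:134055361-134055943, 106) was in all other lists of set 1 but P14 HSCs, as was that of Fli1 (chr9:32521278-32521750, 90.9). Prdm16, a gene needed to maintain HSCs, had 9 P14-only and 2 adult-only regions, and Runx1, the factor of definitive blood formation, 7 and 1. The strongest of Prdm16 (chr4:154500201-154500638, 85.2) was missing from adult HSCs alone among the 12 lists. With the whole lists Prdm16 had 6 and 8, Runx1 6 and 2, Fli1 none and 10 and Etv6 1 and 18, so the direction at Prdm16 turned with list length. Mecom, a self-renewal factor gene, had 5 and 4, and Hlf, which marks HSCs, 3 and 2; with the whole lists these turned to 4 and 11 and none and 5. Kit had 3 and 1 and Flt3 2 and 1, both receptor genes, and Slamf1 had 2 and 1. Procr, a marker of HSCs, had none on either side. At the shares of all regions of the same strength and gene density classes, the list would hold 50.2 P14-only and 70.3 adult-only regions.

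Genes of chromatin regulation had a wide gap at equal length: 34 of 114 P14 regions were P14-only (29.8%) and 4 of 84 adult regions adult-only (4.76%). Cut to equal length by fold, they were 35 and 3, and in the whole lists 20 and 18. Cbx7, a Polycomb subunit gene of HSC self-renewal, had 7 P14-only regions and no adult-only region, Jarid2 5 and none, Kdm6b, a H3K27 demethylase gene, 4 and none, and Dnmt3b, a DNA methyltransferase gene, 3 and none. Ezh1 had 3 and none and Ezh2, its counterpart in dividing cells, 2 and none. With the whole lists Cbx7 had 3 and none and Jarid2 5 and none, whereas Kdm6b had none and 1 and Ezh2 1 and 1. At the shares of all regions of the same strength and gene density classes, the list would hold 24.0 P14-only and 12.9 adult-only regions. The median gene density of its members was 20 genes per Mb.

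Quiescence genes had 35 P14-only of 141 and 10 adult-only of 114 regions at equal length, and 23 and 25 with the whole lists; its classes of strength and density would give 27.4 and 28.6. Smad3, a TGF-beta effector gene, had 7 and none, Foxo3, a factor that protects resting HSCs, 5 and 1 (3 and 3 with the whole lists), and Cdkn1c, the p57 cell cycle inhibitor gene, 3 and none. The only whole-list P14-only region of Cdkn1c was weak (chr7:143461987-143462191, 18.3). Cell cycle genes had 14 of 91 and 8 of 82, where regions of like strength and density would give 16.1 and 10.9. Among them Cdk6, a kinase gene tied to exit from quiescence, went towards the adult with 1 and 3. Genes of the fetal programme had 21 of 77 and 10 of 68, against 16.6 and 16.3 by strength and density, and with the whole lists 16 and 22. The RNA-binding protein genes Igf2bp1, Igf2bp2 and Igf2bp3 each had 3 P14-only regions and no adult-only region (with the whole lists 3 and none, 2 and 2, and 3 and 1), whereas Bcl11a, a repressor gene of fetal globin, had 2 and 4. At Igf2bp3 the strongest region lay at a start (chr6:49215333-49215832, 131) and was also in fetal HSCs (135). Lin28b had none and 1, Hmga2 2 and 3, and Sox17 none and 1.

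**Figure D5:**
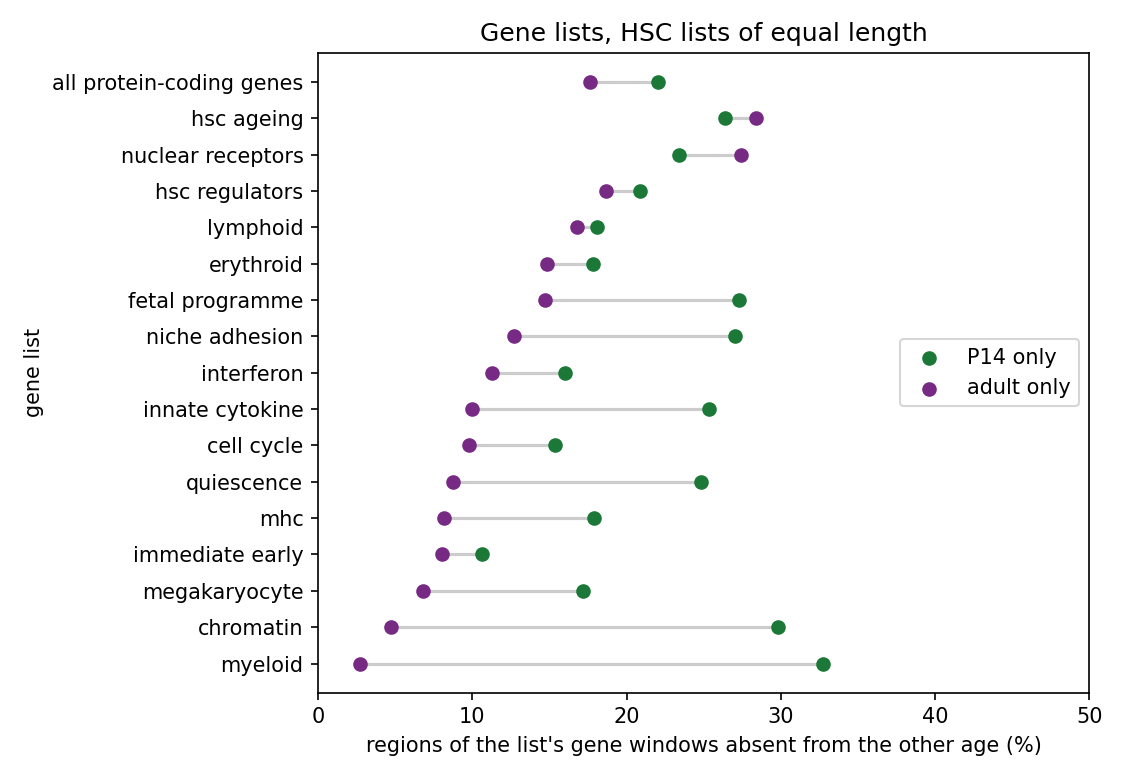
Percentage of regions in the gene windows of each functional list (y axis) that were P14-only (green) or adult-only (purple) at equal length (x axis), with all protein-coding genes at the top (22.0% and 17.6%). Equal length is by -log10 p; in that cut the myeloid list holds 32.7% and 2.70% and the chromatin list 29.8% and 4.76%, and adult-only shares are higher for nuclear receptors and ageing genes.

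Nuclear receptor genes were split between the ages: 36 of 154 P14 regions were P14-only (23.4%) and 42 of 153 adult regions adult-only (27.5%). Regions of like strength and density would give 35.5 and 38.9, close to these counts. Rarb, a retinoic acid receptor gene, had no P14-only and 12 adult-only regions, Nr3c2, the mineralocorticoid receptor gene, none and 8, Esr1, the oestrogen receptor alpha gene, none and 5, and Pgr none and 3. The strongest at Nr3c2 (chr8:77214495-77215475) reached 159 and at Rarb (chr14:16518703-16519369) 124. Ppard and Rxra, which encode partners in a lipid-sensing receptor pair, went the other way with 8 and none and 8 and 1. These windows also differ in surroundings: Rarb, Nr3c2 and Pgr had 3 genes per Mb and Esr1 7, while Ppard had 22 and Rxra 8.

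Myeloid genes had 18 P14-only of 55 regions (32.7%) and 1 adult-only of 37 (2.70%). Itgam, the CD11b gene, had 7 and none, Spi1, the PU.1 factor gene, 3 and none, Prtn3 3 and none and Elane, another granule protease gene, 2 and none. The members sat in gene-dense DNA (median 28 genes per Mb), and regions of like strength and density would give 15.5 and 3.38. With the whole lists the myeloid counts were 12 and 6. Cebpa had 1 and none, and none on either side with the whole lists. Lymphoid genes had 21 of 116 and 19 of 113, against 22.8 and 29.6 by strength and density. Among them Ebf1, a B cell factor gene, had 1 and 3, Mef2c 1 and 4, Ikzf1 1 and 1, Ikzf3 5 and none and Tcf7 3 and none. Megakaryocyte genes had 11 and 4 and erythroid genes 5 and 4. At Itga2b the counts were 1 and none.

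Genes that rise in aged HSCs had 19 of 72 and 21 of 74, where regions of like strength and density would give 17.3 and 17.6. Neo1 had 6 and none and Vwf, the von Willebrand factor gene of platelet-biased HSCs, 4 and none. Jam2 had none and 4 and Runx1t1 1 and 5, and Selp had none on either side. At Jam2 the strongest adult-only region (chr16:84776461-84776714, 193) was also in fetal HSCs (67.7). Genes of the niche and of adhesion had 20 of 74 and 8 of 63, against 15.4 and 10.7 by strength and density. They were led by Itga6, an integrin gene (4 and none), and Cd44 (3 and none).

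Type I interferon genes had 12 and 8 of 75 and 71 regions. Dhx58, an RNA sensor gene, had 3 and none, and Ifnar2, a receptor chain gene, and Ifit2 2 and none each. Antigen presentation genes had 12 of 67 and 5 of 61, against 15.8 and 5.21 by strength and density. Ciita, their master activator, was at 1 and 2 and H2-DMa at 4 and 1. Innate and cytokine receptor genes had 18 of 71 and 6 of 60, against 16.0 and 9.78, with Il6ra at 5 and 1. Immediate early genes had 7 of 66 and 5 of 62, against 9.63 and 6.62. The immediate early list depended on the cut: 10.6% of its P14 regions were P14-only at equal length by -log10 p and 40.9% at equal length by fold.

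Over 12 settings of list length, threshold, overlap and window, the adult-only share was the higher one in 11 for nuclear receptors and ageing genes, in 9 for erythroid genes, in 8 for HSC regulators and lymphoid genes, in 2 for myeloid genes and in 1 for chromatin and megakaryocyte genes. For the remaining functional lists it was the higher one in 3 to 7 settings, so their direction depended on the setting. That of all protein-coding genes did so too. Their adult-only share was the higher one with the whole lists (25.6% against 15.5%). It was the lower one at equal length by -log10 p (17.6% against 22.0%) and by fold (17.9% against 23.4%). A turn of direction was therefore not particular to these lists.

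Markers of other cell types lay on both sides. Those of stroma had 10 and 3 (Pdgfra 5 and none, Cxcl12 none and 3), endothelium 7 and 2 (Flt1 5 and 1), macrophages 5 and 2, hepatocytes 2 and 1 and neutrophils 1 and none. In this order, regions of like strength and density would give 7.22 and 4.35, 6.26 and 3.91, 3.79 and 2.45, 3.24 and 1.19, and 3.36 and 0.851. S100a8, Ltf and Retnlg held shared regions alone, and S100a9 and Camp held no region at either age.

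The genes of at most 200 kb with the largest excess at P14 were Ephb2, an ephrin receptor gene (13 and none), Rab11fip4 (13 and none), Vav2, a guanine nucleotide exchange factor gene (13 and none), Arhgef10l (12 and none) and Tcf20 (12 and none), followed by Hlcs, Lemd1, Lingo1 and Syt2 (10 and none each) and Septin9 (11 and 2). The largest adult excess was at Ston2, an endocytic adaptor gene (none and 9), Khdrbs3 (2 and 10) and Atp10a (none and 8), and at the overlapping genes of the gamma protocadherin cluster, which share the same 8 adult-only regions. Vav2 held 16 regions at P14 and 3 of the equal-length adult list. With the whole adult list it held 5 and had 12 P14-only regions, so its excess did not rest on the cut. The other P14 genes named here also kept more P14-only than adult-only regions with the whole lists. Rab11fip4 and Lingo1 had 10 and none, but the excess shrank at Tcf20 to 7 and 1 and at Septin9 to 4 and 3. The P14 genes had 10 to 22 genes per Mb, and Ston2, Khdrbs3 and Atp10a 1 to 4, but the 7 protocadherin genes 54 to 55.

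Of 1005 microRNA hairpins, counted with 1 kb on each side, 196 were near a region of both whole lists, 24 of the P14 list alone and 24 of the adult list alone, which is 10.9% of those called at each age, against 15.5% and 30.5% of all regions. At equal length 34 were near a P14 region alone and 15 near an adult region alone (15.5% and 7.46%, against 21.9% and 22.1%). Shares of hairpins and of regions are unlike measures, so no depletion can be read from them. A hairpin counted for both lists when each had a region anywhere in its window, and some hairpins share 1 region. In the whole lists Mir1955 had the strongest P14 region (250), and in the adult Mir744 (192) and the neighbours Mir23b and Mir27b (75.5), which share 1 region, were among those without a P14 region.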

How the data were processed

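The authors aligned ATAC-seq reads with Bowtie2 to mm10 (GRCm38) and called peaks with MACS2, per the submitters' processing notes; the sources used here give no versions, filters or settings. Each group has 1 deposited peak list over its pooled libraries. The deposited columns are a score, capped at 1000, a fold (ratio) over background, -log10 p and -log10 q; all are the authors' own values. The deposited summit offset, a position with no other scale, was used for the count of summits alone. Lists were assigned by the name they carry, and the HSC lists of P14 (3 libraries) and adult (5 libraries) were compared.

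Peaks on chromosomes 1 to 19 and X were merged, a region taking its highest -log10 p. Genes (21631 protein-coding) and 21045 promoters of 17274 genes came from RefSeq GRCm38.p6. Of 322 gene list members 318 matched. With n = 1 list per age there was no test, and no p-value was computed. Alternatives were equal length by -log10 p or fold, -log10 q of at least 5, the upper 50%, 50% coverage, a gap of 500 bp and gene windows of 50 kb or none.

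Named genes are the 15 strongest regions per direction within 50 kb of a gene end, the 5 strongest in no other list of set 1, up to 4 members per gene list with a difference of at least 2, the 10 genes with the largest difference per direction, and a fixed set; a few are left to the summaries. Members and lists were chosen with earlier results of these data known, and the density, locus and promoter counts after values were seen. The overlap code was checked on altered copies of the adult HSC list, with regions removed or shifted at random. Python 3.11.15, pandas 2.3.3 and scipy 1.17.1 were used. Motifs in regions outside promoters were not analysed here. Some genes of the lists are not reported here.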

Additional observations from a re-analysis of the deposited data

How the results depend on the processing

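Each age has 1 list over pooled libraries, so no library could be left out. No paired analysis was possible because the lists are pooled and carry no replicate. With the lists cut to equal length by -log10 p, adult-only regions numbered 16183 (by fold 16900). P14-only regions were in fetal HSCs in 50.258% (by fold 53.202%) and in P14 HPCs in 52.061% (54.749%). Adult-only regions were in fetal HSCs in 63.418% (61.763%), in adult HPCs in 65.501% (62.817%) and over 100 kb from a start in 46.289% (48.343%). Among strong regions there were 830 P14-only and 4536 adult-only regions, and at equal length, an alternative chosen after seeing the data, 1299 and 2671. In the same order, P14-only strong regions were in fetal HSCs in 80.482% and 80.216%, in P14 HPCs in 77.349% and 77.367%, and far from starts in 11.084% and 11.393%. Adult-only strong regions were in fetal HSCs in 77.469% and 79.895%, in adult HPCs in 81.856% and 85.548%, and far from starts in 53.902% and 56.421%. When 50% of a region had to be covered, the shares were 49.163% (P14-only in fetal HSCs), 50.86% (in P14 HPCs), 53.524% (adult-only in fetal HSCs) and 54.404% (in adult HPCs). When gaps up to 500 bp counted as shared, 53.488% of adult-only regions were in adult HPCs and 45.147% far from starts. The cause of these shifts was not tested. Leaving out regions of -log10 p below 10, also chosen after seeing the data, gave 15.3% P14-only and 30.3% adult-only. Read depth of either pool is unknown, and a region missing from a list may be open but below its threshold.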
